A study of Mus musculus with 13 samples.

Results

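The respiratory chain of the inner mitochondrial membrane is built from subunits of 2 genomes, and the nuclear-encoded subunits were followed here in bone marrow-derived macrophages (BMDMs) with and without *Acly*. Members were the gene symbols that begin with Nduf, Uqcr, Cox4i, Cox5, Cox6, Cox7, Cox8 or Atp5, together with *Sdha*, *Sdhb*, *Sdhc*, *Sdhd* and *Cyc1*. 95 symbols matched. The pseudogene *Ndufs5-ps* was dropped, 7 of the remaining 94 had too few counts to be tested, and 87 of the 11904 genes tested were members. Of these, 36 belonged to complex I, 8 were complex I assembly factors, which are not subunits but carry the Ndufaf prefix, 4 belonged to complex II, 9 to complex III, 14 to complex IV and 16 to complex V. *Ndufa4* was counted with complex IV, where its protein resides.

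BMDMs are macrophages grown from mouse bone marrow in medium conditioned by L929 fibroblasts. Control mice carried floxed *Acly* alleles (Acly fl/fl), and AclyM-KO mice carried in addition Cre under the *Lyz2* promoter, so that the flanked exon is lost in cells of the myeloid lineage. The paper describes the floxed mice as C57Bl/6J and states no background for the *Lyz2*-Cre line. Cells of both genotypes were exposed to lipopolysaccharide (LPS), a component of the bacterial outer membrane, for 3 h or 24 h, which gave 4 groups of 3 libraries. A further 24 h control library, replicate 1, held 34467 counts and was left out. The labels do not say whether replicates came from separate mice, so p-values measure the spread between these libraries only.

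ATP citrate lyase, the product of *Acly*, splits citrate exported from mitochondria into acetyl-CoA and oxaloacetate in the cytosol. In the respiratory chain, complex I (NADH dehydrogenase) and complex II (succinate dehydrogenase, also an enzyme of the citric acid cycle) pass electrons to ubiquinone, complex III passes them to cytochrome c, complex IV (cytochrome c oxidase) passes them to oxygen, and complex V (ATP synthase) uses the resulting proton gradient to make ATP. Macrophages activated with LPS are known to lean on glycolysis and to accumulate succinate and citrate, so the transcripts of these complexes bear on a well-studied part of macrophage activation.

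The 12 libraries held 21274102 to 59577343 counts, the deepest being control 24 h replicate 4. *Acly* itself stood at 105, 107 and 106 CPM (reads scaled to a common library size by TMM) in the 3 h controls against 37.7, 46.2 and 41.5 in AclyM-KO, and at 113, 109 and 107 against 30.1, 30.5 and 29.0 at 24 h. All AclyM-KO libraries lay below all controls, with log2 fold changes of -1.34 ± 0.061 (SE) and -1.88 ± 0.062. All 7 macrophage markers were present. *Lyz2*, whose promoter drives the Cre, was lower in AclyM-KO, at 2272 to 2943 CPM against 5218 to 5265 in controls at 3 h and 860 to 958 against 2358 to 2520 at 24 h. The other 6 markers summed to 3814 to 3979 CPM in 3 h controls, 3865 to 4065 in AclyM-KO at 3 h, 3543 to 3709 in 24 h controls and 3482 to 3668 in AclyM-KO at 24 h, so their ranges overlapped between the genotypes at both times. The 9 neutrophil markers together fell from 11.9 to 15.3 CPM at 3 h to 3.44 to 4.70 CPM at 24 h, with *Ly6g*, *Elane* and *Mpo* under 1 CPM in every library, and the part of such cells in the results was not tested. In bulk RNA, fewer cells of one kind and less RNA per cell cannot be told apart.

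Compared per kilobase of transcript, the members with the highest levels were *Atp5b*, the catalytic beta subunit of ATP synthase, at 134 CPM per kilobase, and *Cox4i1*, the ubiquitous isoform of complex IV subunit 4, at 132. Median levels per complex were 14.2 CPM per kilobase for complex I, 35.3 for complex II, 22.8 for complex III, 31.7 for complex IV and 32.0 for complex V, whereas the complex I assembly factors had a median of 2.27. The untested members were mostly tissue-specific isoforms of complex IV. *Cox4i2*, *Cox6b2*, *Ndufa4l2*, *Cox8b*, *Cox7b2* and *Cox8c* had 19, 5, 2, 1, 0 and 0 counts in the 12 libraries together, and *Atp5g1*, one of the genes for the c ring of ATP synthase, had 83. The dropped pseudogene *Ndufs5-ps* held 479 counts in the table against 425 for *Ndufs5* itself, so the level of *Ndufs5* is uncertain.

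From 3 h to 24 h of LPS, the members moved less than the genes at large. In control macrophages 27 of 87 members rose and 18 fell at an adjusted p under 0.05, beside 38.9% and 36.0% of all genes tested, and in AclyM-KO macrophages 17 rose and 26 fell, beside 39.4% and 36.3%. The median size of the log2 fold change, whatever its sign, was 0.23 for members and 0.60 for all genes in controls, and 0.26 and 0.63 in AclyM-KO. 70 and 74 of 87 members (80.5% and 85.1%) stayed within 0.5 of zero on the log2 scale, against 43.5% and 41.5% of all genes. Of the members, 32 passed in both genotypes, 17 rising and 15 falling in both and none in opposite directions. 13 passed in controls alone and 11 in AclyM-KO alone, which does not show that the genotypes differed in them. The same overlaps were not counted over all genes, of which 74.9% passed in controls and 75.7% in AclyM-KO. No trait of the members is therefore read from these overlaps.

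The direction of the small changes depended on the scaling. With libraries scaled by total counts alone, the median of all genes shifted upward by 0.275 (log2) in controls and 0.244 in AclyM-KO, and the split became 50 rising and 5 falling in controls and 42 rising and 8 falling in AclyM-KO. 9 of the 45 called members in controls and 3 of the 43 in AclyM-KO then had the opposite sign. Members, each taken as its transcript with most counts, took 0.192% to 0.211% of the counts summed over all transcripts at 3 h and 0.225% to 0.251% at 24 h. By contrast, their summed TMM-scaled level was 2230 ± 47.6 CPM (SD, n = 3) in 3 h controls, 2193 ± 85.8 in 24 h controls, 2232 ± 88.2 in AclyM-KO at 3 h and 2077 ± 17.8 at 24 h. Differences between members of the same complex do not depend on this scaling.

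**Figure D1:**
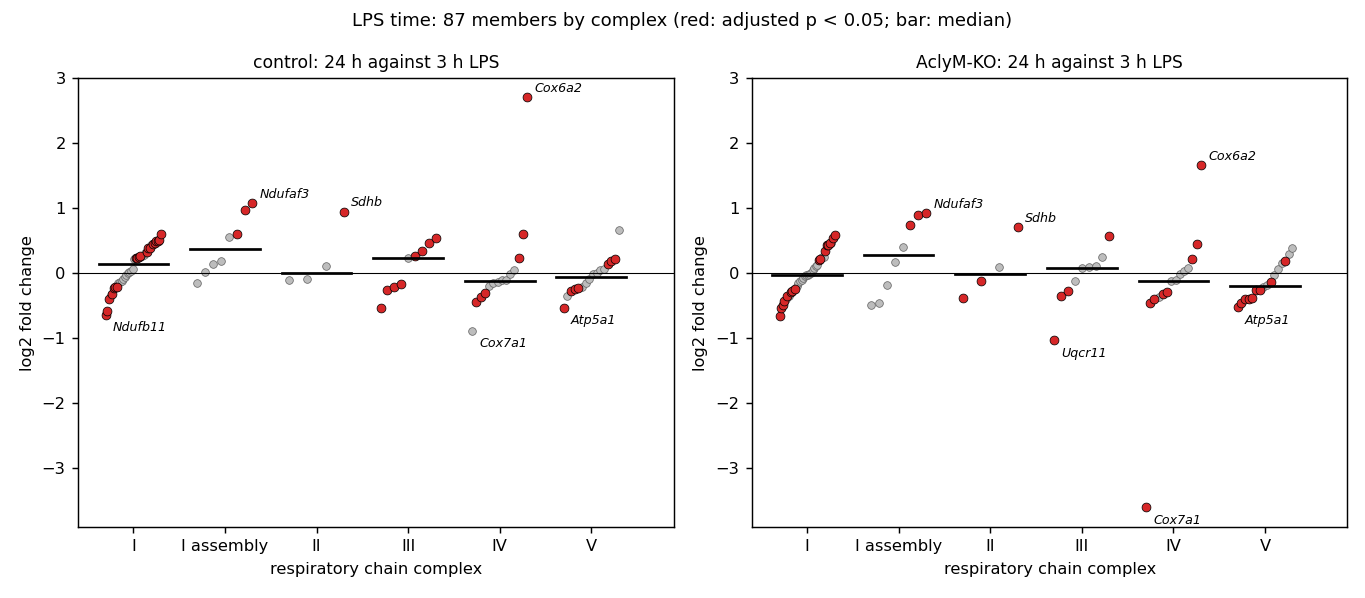
Log2 fold change of each of the 87 members between 24 h and 3 h of LPS (vertical axis), by complex (horizontal axis), in control macrophages (left) and AclyM-KO macrophages (right); red points passed an adjusted p under 0.05, grey points did not, and bars mark the median of a complex. In complexes I, III, IV and V red points lie on both sides of zero in both genotypes, with *Cox6a2* and *Cox7a1* far from the rest.

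In complex II, 1 of 4 subunits (25%) rose in controls and none fell, and in AclyM-KO 1 rose and 2 fell. *Sdhb*, the iron-sulphur subunit that carries electrons from the flavoprotein to ubiquinone, stood at 31.7, 30.5 and 34.3 CPM in 3 h controls and 62.9, 59.2 and 64.3 in 24 h controls. In AclyM-KO it stood at 32.4, 35.5 and 35.8 CPM at 3 h and 56.4, 55.9 and 57.5 at 24 h. The groups did not overlap between the times, and the log2 fold change was 0.951 ± 0.063 in controls (edgeR quasi-likelihood test, adjusted p = 1.34e-14) and 0.712 ± 0.063 in AclyM-KO (adjusted p = 1.35e-11).

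*Sdha*, the flavoprotein that oxidises succinate, stood at 112, 110 and 111 CPM in 3 h controls and 103, 99.5 and 107 in 24 h controls, with a log2 fold change of -0.10 ± 0.049 (adjusted p = 0.0566). In AclyM-KO it moved by -0.12 ± 0.049 (adjusted p = 0.0247), a sign that turned with total-count scaling. The membrane anchor *Sdhc* did not pass in controls (-0.09 ± 0.067, adjusted p = 0.226) and fell in AclyM-KO, from 54.9, 63.9 and 61.3 CPM to 44.4, 49.9 and 44.1 (-0.38 ± 0.067, adjusted p = 8.05e-06), a call that was lost with total-count scaling. The other anchor, *Sdhd*, passed in neither genotype, with log2 fold changes of 0.11 ± 0.064 and 0.09 ± 0.065.

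In complex III, 8 of 9 members passed in controls, 4 in each direction (44.4% each, beside 38.9% rising and 36.0% falling among all genes). *Uqcrq*, a small accessory subunit, rose by 0.55 ± 0.086, *Uqcrc2*, a core subunit, by 0.47 ± 0.060, *Cyc1*, which carries the haem of cytochrome c1, by 0.345 ± 0.075 and *Uqcr10* by 0.275 ± 0.082. *Uqcr11*, a small accessory subunit, stood at 8.04, 7.62 and 9.47 CPM in 3 h controls and 6.11, 5.58 and 5.68 in 24 h controls, a change of -0.535 ± 0.114 (adjusted p = 1.10e-04). In AclyM-KO it went from 8.55, 9.84 and 8.94 CPM to 4.62, 4.46 and 4.30, a change of -1.03 ± 0.120 (adjusted p = 4.90e-09) and the lowest levels of the 4 groups. Its changes were not shown to differ between the genotypes, as the interaction of genotype and time did not pass (-0.497 ± 0.166, edgeR quasi-likelihood test, adjusted p = 0.0537). *Uqcrh* (-0.26 ± 0.076), the Rieske iron-sulphur protein *Uqcrfs1* (-0.21 ± 0.074) and the core subunit *Uqcrc1* (-0.16 ± 0.064) also fell in controls, but these 3 had the opposite sign with total-count scaling. In AclyM-KO 4 members passed, *Uqcrc2* rising (0.57 ± 0.061) and *Uqcr11*, *Uqcrc1* and *Uqcrfs1* falling (11.1% and 33.3% of the 9, beside 39.4% and 36.3%), and the calls of *Uqcrc1* and *Uqcrfs1* were lost with total-count scaling.

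Complex IV held the largest changes of all members, in isoforms that are best known from striated muscle. *Cox6a2*, the muscle isoform of subunit 6A, had 10, 12 and 11 counts in 3 h controls and 87, 84 and 229 in 24 h controls, which correspond to 0.496, 0.561 and 0.548 CPM and 3.57, 3.58 and 3.50 CPM. It rose by 2.71 ± 0.314 in controls (adjusted p = 2.98e-08) and by 1.66 ± 0.287 in AclyM-KO (adjusted p = 1.26e-05), where the counts were 6, 35 and 21 at 3 h and 78, 100 and 62 at 24 h. An exon of *Cox6a2* overlaps *Itgad* on the other strand, which had 35 counts in all. The ubiquitous isoform *Cox6a1* stood at 36.6 ± 3.91 CPM in 3 h controls and 36.4 ± 2.81 in 24 h controls (log2 fold change -0.002 ± 0.079).

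Among the common subunits of complex IV, *Cox4i1* and *Cox5a*, which join the complex early in its assembly, moved apart. *Cox4i1* fell from 118, 117 and 118 CPM to 85.6, 83.7 and 89.2 in controls (-0.45 ± 0.050, adjusted p = 2.62e-09) and by -0.39 ± 0.051 in AclyM-KO. *Cox5a* rose from 42.1, 43.6 and 38.9 CPM to 59.6, 58.1 and 70.9 in controls (0.61 ± 0.068, adjusted p = 2.67e-09) and by 0.45 ± 0.069 in AclyM-KO. *Ndufa4* (-0.36 and -0.46) and *Cox6c* (-0.30 and -0.32) fell in both genotypes under TMM, and neither passed with total-count scaling. *Cox7a2l*, which takes part in supercomplex assembly, passed in neither genotype (-0.10 ± 0.079 and 0.035 ± 0.080). 3 of 14 members rose and 3 fell in controls (21.4% each), and 3 rose and 5 fell in AclyM-KO (21.4% and 35.7%), all below the shares among all genes.

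In complex V, 7 of 16 members passed in controls (3 rising, 18.8%, and 4 falling, 25%, beside 38.9% and 36.0% of all genes) and 9 in AclyM-KO (1 rising, 6.25%, and 8 falling, 50%, beside 39.4% and 36.3%). *Atp5a1*, the alpha subunit of the catalytic head, fell from 291, 290 and 281 CPM to 203, 196 and 201 in controls (-0.53 ± 0.046, adjusted p = 1.34e-11) and from 276, 289 and 288 to 193, 202 and 198 in AclyM-KO (-0.52 ± 0.047, adjusted p = 1.54e-11). *Atp5b*, which alternates with it in the head, was at 249 ± 5.21 and 258 ± 6.10 CPM in controls (0.05 ± 0.048, adjusted p = 0.357). The summed level of complex V was 845 ± 21.7 CPM in 3 h controls and 762 ± 28.6 in 24 h controls, and 867 ± 31.1 and 730 ± 9.24 in AclyM-KO. *Atpif1*, the inhibitor of ATP synthase and no member, fell as well, from 48.4, 54.2 and 57.0 CPM to 31.3, 30.5 and 32.7 in controls (-0.75 ± 0.067, adjusted p = 1.75e-11).

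In complex I, 13 of 36 subunits rose and 7 fell in controls (36.1% and 19.4%, beside 38.9% and 36.0% of all genes), and 8 rose and 8 fell in AclyM-KO (22.2% each, beside 39.4% and 36.3%). The accessory subunit *Ndufb9* rose by 0.61 ± 0.079 in controls and 0.435 ± 0.080 in AclyM-KO, while *Ndufb11*, an accessory subunit of the same membrane arm encoded on the X chromosome, went from 12.1, 14.5 and 13.2 CPM to 8.07, 8.52 and 8.82 in controls (-0.64 ± 0.095, adjusted p = 5.31e-07) and fell by -0.65 ± 0.099 in AclyM-KO. *Ndufa1*, a further small subunit of the membrane arm, fell in controls (-0.57 ± 0.110, adjusted p = 3.30e-05) and did not pass in AclyM-KO (-0.24 ± 0.117, adjusted p = 0.0642). Of the core iron-sulphur subunits, *Ndufs7* rose in controls (0.5 ± 0.094) and so did *Ndufs8* (0.39 ± 0.106), whereas in AclyM-KO they moved by 0.11 ± 0.093 and -0.115 ± 0.110 and did not pass. The interaction of genotype and time did not pass for *Ndufa1* or *Ndufs7* (edgeR quasi-likelihood test, adjusted p = 0.206 and 0.0581). For *Ndufs8* it passed, as given below. The NADH-binding subunit *Ndufv1* and the large iron-sulphur subunit *Ndufs1* passed in none of the comparisons, and *Ndufs1* stood at 33.5 ± 1.81, 32.5 ± 2.11, 32.1 ± 1.36 and 32.05 ± 1.53 CPM in 3 h controls, AclyM-KO at 3 h, 24 h controls and AclyM-KO at 24 h. An exon of *Ndufb11* overlaps *Rbm10* on the other strand, which rose from 2.59 to 5.44 CPM in controls while *Ndufb11* fell.

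3 of the 8 complex I assembly factors, proteins that help build complex I and then leave it, rose in both genotypes and none fell. The share that rose, 37.5%, was close to that of all genes (38.9% in controls and 39.4% in AclyM-KO). *Ndufaf3* stood at 2.68, 3.23 and 3.09 CPM in 3 h controls and 6.11, 5.88 and 6.82 in 24 h controls (1.08 ± 0.148, adjusted p = 1.31e-07), and rose by 0.93 ± 0.148 in AclyM-KO. *Ndufaf1* rose by 0.98 ± 0.143 and 0.74 ± 0.148, and *Ndufaf4*, a binding partner of *Ndufaf3*, by 0.61 ± 0.172 and 0.90 ± 0.193. Together the 8 factors amounted to 19.1 ± 1.56 CPM in 3 h controls against 28.2 ± 0.766 in 24 h controls, and 19.0 ± 1.33 against 25.3 ± 0.737 in AclyM-KO. An exon of *Ndufaf3* overlaps *Impdh2* on the other strand, which went from 2.56 to 1.31 CPM in controls, the opposite direction.

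Beyond a log2 fold change of 0.75, the threshold of the study, 4 members passed over time in controls (*Cox6a2*, *Ndufaf3*, *Ndufaf1* and *Sdhb*, all rising), beside 40.4% of all genes tested in either direction. In AclyM-KO 5 passed, *Cox6a2*, *Ndufaf3* and *Ndufaf4* rising and *Cox7a1* and *Uqcr11* falling, beside 41.9%. These calls for the 4 members in controls, and those for the 5 in AclyM-KO, kept an adjusted p under 0.05 with any 1 library left out.

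**Figure D2:**
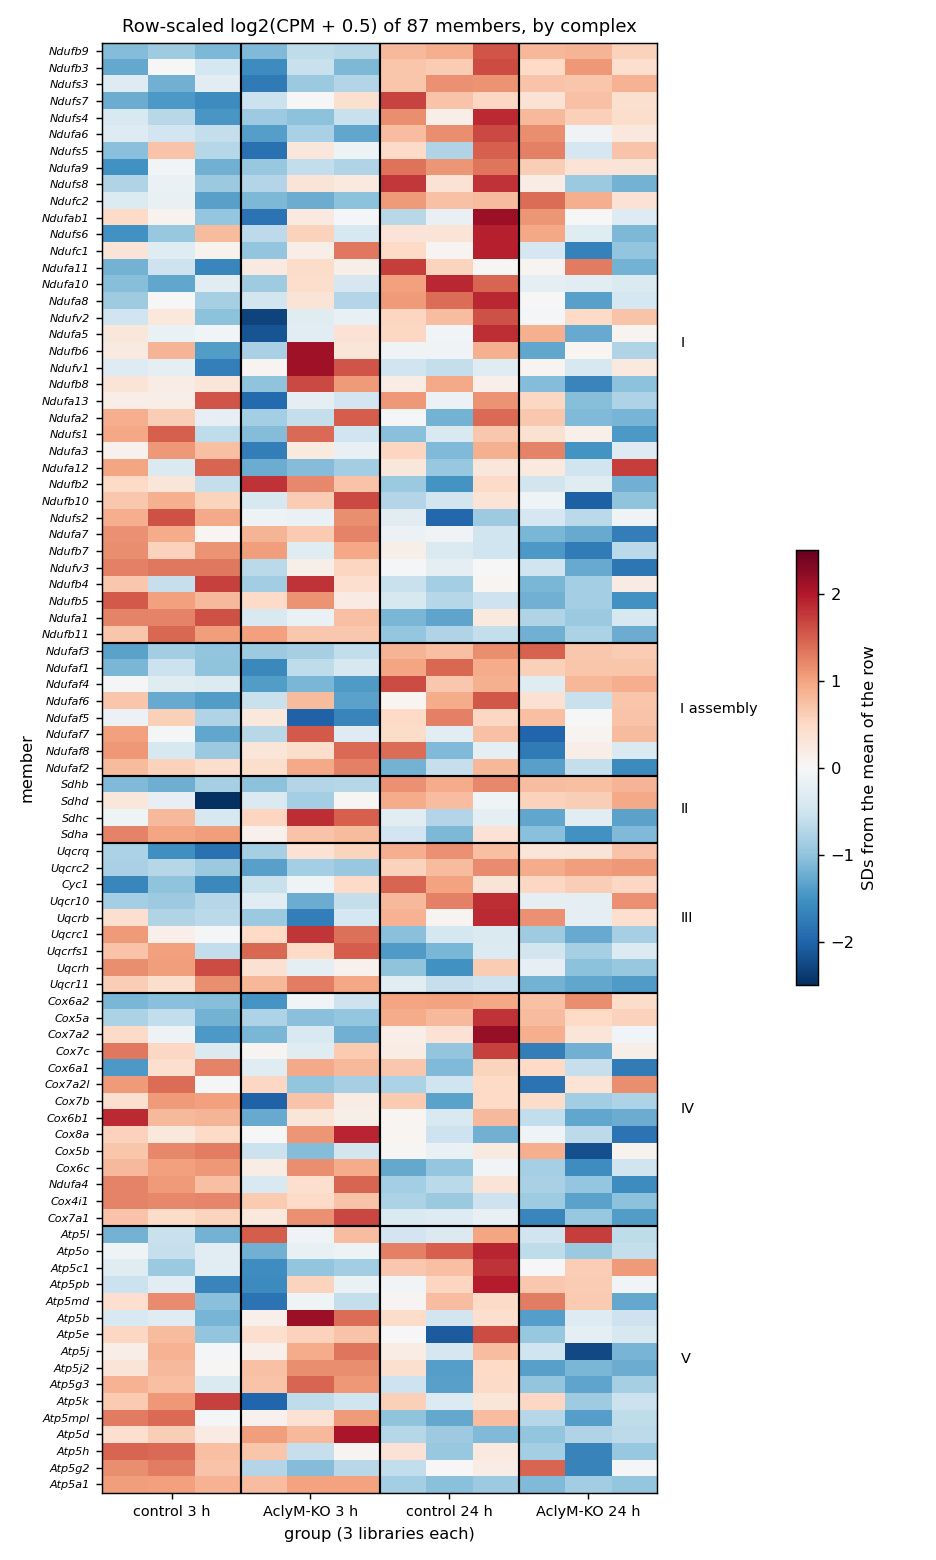
Log2(CPM + 0.5) of the 87 members (rows, grouped by complex and sorted by their change over time in controls) in the 12 libraries (columns, 3 per group), scaled within each row and coloured by the number of SDs from the mean of the row. Rows such as *Sdhb*, *Cox5a*, *Cox4i1* and *Atp5a1* split the libraries by time, and no complex has all rows of one colour at a time.

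Ratios of 2 subunits within a library show the same divergence with no scaling between libraries. The pairs were chosen after their values had been seen and carry no test. Exons of *Cox5a*, *Cox4i1*, *Uqcrc2* and *Atp5a1* overlap another gene on the other strand, and *Ndufb9* overlaps *Gm49356* on the same strand. The part of shared reads in these ratios was not tested. The ratio of *Sdhb* to *Sdha* counts was 0.284, 0.277 and 0.311 in 3 h controls and 0.613, 0.595 and 0.601 in 24 h controls, a 2.08-fold difference, and its mean was 0.320 ± 0.0119 and 0.572 ± 0.00675 (SD, n = 3) in AclyM-KO. *Cox5a* to *Cox4i1* went from 0.353 ± 0.0203 to 0.729 ± 0.0574 in controls (2.06-fold) and from 0.384 ± 0.00889 to 0.686 ± 0.0107 in AclyM-KO (1.79-fold). *Ndufb9* to *Ndufb11* went from 1.14 ± 0.0805 to 2.69 ± 0.130 in controls and from 1.27 ± 0.121 to 2.71 ± 0.131 in AclyM-KO. *Uqcrc2* to *Uqcrc1*, both core subunits of complex III, went from 0.874 ± 0.0554 to 1.34 ± 0.0452 and from 0.763 ± 0.0163 to 1.45 ± 0.0464, and *Atp5b* to *Atp5a1* from 0.867 ± 0.00348 to 1.29 ± 0.00943 and from 0.951 ± 0.0210 to 1.25 ± 0.00950. For these 5 ratios every 24 h library lay above every 3 h library.

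**Figure D3:**
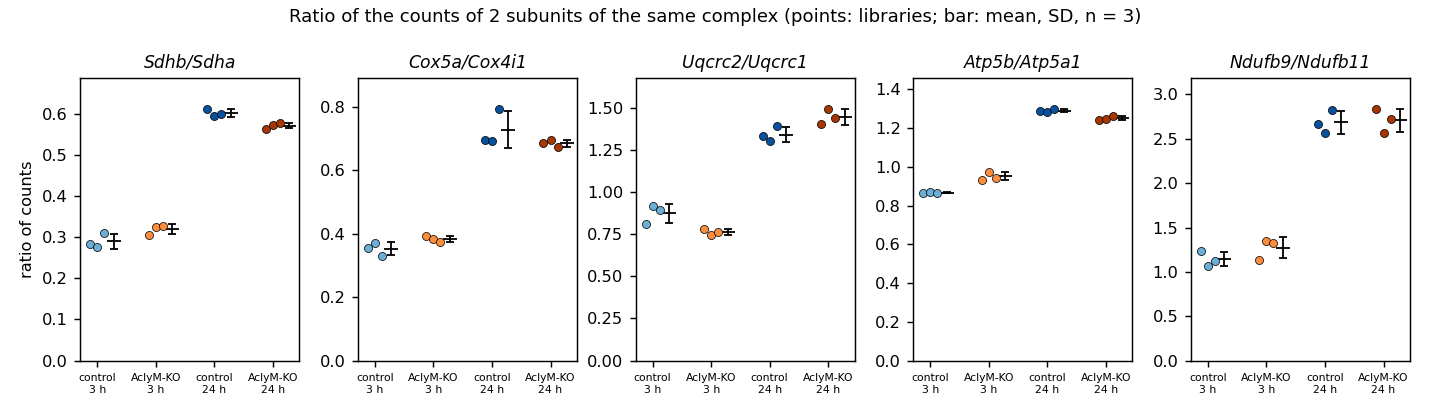
Ratio of the raw counts of 2 subunits of the same complex (vertical axis, from 0) in each library of the 4 groups (horizontal axis); points are libraries and bars are the mean and SD of 3 libraries. In all 5 panels the 24 h points lie above the 3 h points in both genotypes, as for *Sdhb*/*Sdha*, whose mean went from 0.290 to 0.603 in controls.

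The promoters of *Sdhb* and *Ndufaf3*, which rose over time, and of *Ndufb11* and *Uqcr11*, which fell, show what precedes the start of these genes. The 200 bases before the RefSeq transcription start are given 5′ to 3′ on the strand of the gene (GRCm38.p6, the mm10 build), with capitals where a searched motif lies on either strand. The motifs were those of NRF1 (GCATGCGC), the ETS family, which includes GABP (CCGGAAG), YY1 (AAGATGGCG), NF-Y (CCAAT) and the TATA box (TATAAA).
Sdhb, chr4:140961071-140961270, plus strand: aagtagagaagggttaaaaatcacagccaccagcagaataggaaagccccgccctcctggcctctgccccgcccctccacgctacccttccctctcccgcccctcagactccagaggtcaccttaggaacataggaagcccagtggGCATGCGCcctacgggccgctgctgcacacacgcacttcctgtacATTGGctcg
Ndufaf3, chr9:108567437-108567636, minus strand: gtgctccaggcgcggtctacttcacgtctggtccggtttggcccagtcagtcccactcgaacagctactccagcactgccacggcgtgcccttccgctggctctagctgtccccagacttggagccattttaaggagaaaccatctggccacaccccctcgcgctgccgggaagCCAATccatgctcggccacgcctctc
Ndufb11, chrX:20617620-20617819, minus strand: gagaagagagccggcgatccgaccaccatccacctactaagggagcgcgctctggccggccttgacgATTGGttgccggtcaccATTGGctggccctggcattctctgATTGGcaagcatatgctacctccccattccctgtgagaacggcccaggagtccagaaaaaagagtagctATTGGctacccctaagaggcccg
Uqcr11, chr10:80406822-80407021, minus strand: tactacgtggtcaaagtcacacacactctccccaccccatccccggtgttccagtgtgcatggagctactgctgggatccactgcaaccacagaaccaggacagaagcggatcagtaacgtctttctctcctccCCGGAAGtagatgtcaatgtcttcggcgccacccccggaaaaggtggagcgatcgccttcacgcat
In these windows *Sdhb* held an NRF1 match and an NF-Y match, *Ndufaf3* an NF-Y match, *Ndufb11* 4 NF-Y matches and *Uqcr11* an ETS match. In the longer windows described next, *Sdhb* and *Uqcr11* each held both an NRF1 and an ETS match.

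Over all members, promoter windows of 300 bases (250 before the start and 50 after it) were listed for 72 of the 87, 77 windows in all. NRF1 letters occurred in 12 of them (15.6%, against 5.19% of 12149 windows of all genes tested), YY1 in 8 (10.4% against 3.06%), ETS in 19 (24.7% against 18%), NF-Y in 32 (41.6% against 37.8%) and TATA in 7 (9.09% against 7.04%). The median GC content was 59.0% in the windows of the members and 60.3% in all windows. These are matches of letters, not measured binding.

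Deletion of *Acly* changed few members at 3 h of LPS, and by small amounts. 3 of 87 members were higher in AclyM-KO and 3 lower at an adjusted p under 0.05, beside 8.5% and 6.91% of all genes tested, and none passed the fold threshold of 0.75, beside 2.01%. At an unadjusted p under 0.05, 10 of 87 members were higher and 9 lower, beside 1733 and 1593 of all 11904 genes tested. The median log2 fold change of the members was -0.014, against -0.005 for all genes, and 46 of 87 lay below zero (52.9%, against 51.0%).

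*Atp5k*, the e subunit of ATP synthase, which lies in the membrane part where the enzyme forms dimers, stood at 13.9, 14.9 and 16.3 CPM in 3 h controls and at 9.37, 11.5 and 11.7 in AclyM-KO. The groups did not overlap, the log2 fold change was -0.465 ± 0.104 (adjusted p = 0.00217), and the call stood with any 1 library left out and under all 10 other alternatives. At 24 h it stood at 13.8, 12.02 and 13.2 CPM in controls and 13.7, 11.1 and 11.7 in AclyM-KO, which overlapped. *Atpif1*, the inhibitor of the same enzyme, was likewise lower in AclyM-KO at 3 h, at 39.6, 40.7 and 43.9 CPM against the 48.4 to 57.0 CPM of the controls (-0.36 ± 0.068, adjusted p = 3.42e-04), also with any 1 library left out.

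The other called members at 3 h were each lost without at least 2 of the single libraries. *Uqcrq* was higher in AclyM-KO, at 16.6, 20.2 and 20.9 CPM against 16.7, 14.8 and 13.96 in controls (0.35 ± 0.090, adjusted p = 0.0079), with 1 AclyM-KO library inside the range of the controls, and its call was lost without control replicate 3 or AclyM-KO replicate 3. *Ndufs7* (0.30 ± 0.099, adjusted p = 0.0405) and *Sdhc* (0.20 ± 0.068, adjusted p = 0.042) were also higher. *Ndufa1* was lower (-0.38 ± 0.114, adjusted p = 0.0237), as was *Ndufv3*, a subunit of the module that oxidises NADH (-0.30 ± 0.091, adjusted p = 0.0253). The count of called members was 1 without control replicate 3, 2 without control replicate 1, and 3 without control replicate 2 or AclyM-KO replicate 3.

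**Figure D4:**
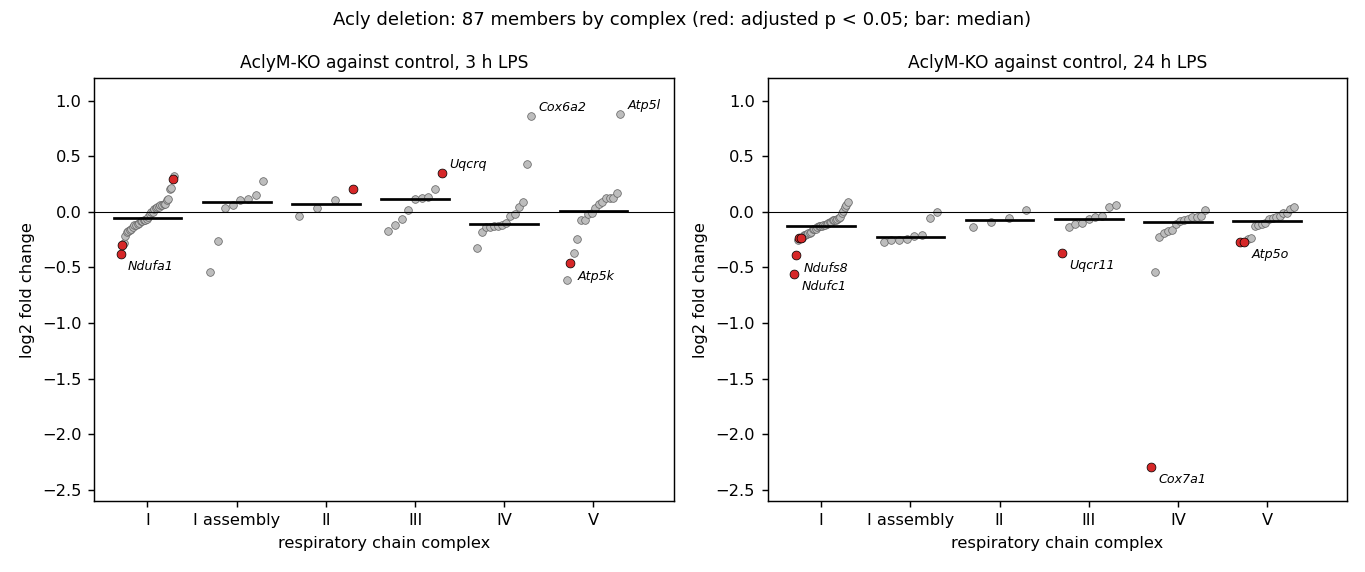
Log2 fold change of each of the 87 members in AclyM-KO against control macrophages (vertical axis) by complex (horizontal axis) after 3 h (left) and 24 h of LPS (right); red points passed an adjusted p under 0.05, grey points did not, and bars mark the median of a complex. At 3 h the points lie on both sides of zero (46 of 87 below it), and at 24 h most lie below it (76 of 87).

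At 24 h of LPS no member was higher in AclyM-KO and 8 were lower, beside 8.32% and 5.57% of all genes tested. No member was higher at an unadjusted p under 0.05 either, by DESeq2 or by limma voom, and 20 were lower at an unadjusted p. Among all 11904 genes tested, 1805 were higher and 1327 lower at an unadjusted p under 0.05. 76 of 87 members lay below zero (87.4%, against 48.7% of all genes), among them 32 of 36 in complex I, 7 of 8 assembly factors, 3 of 4 in complex II, 7 of 9 in complex III, 13 of 14 in complex IV and 14 of 16 in complex V. The shift was small, with a median log2 fold change of -0.112 for members and 0.006 for all genes.

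This shift leaned on the deepest library. Control 24 h replicate 4 had the highest level of the 3 controls for 58 of 87 members (66.7%, against 37.4% of all genes). Without it the median was -0.058, 62 of 88 members tested lay below zero and 1 member was called. The mitochondrial ribosome, with 64 of 77 proteins below zero, and the import machinery, with 20 of 23, lay to the same side at 24 h, so the lean was not tested as particular to the respiratory chain.

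*Atp5o*, the subunit of the peripheral stalk known as OSCP, stood at 24.8, 25.3 and 26.2 CPM in 24 h controls and 21.2, 20.7 and 21.3 in AclyM-KO (-0.27 ± 0.068, adjusted p = 0.00595). The groups did not overlap, and its call at 24 h was the only one of the 8 that stood with any 1 library left out, though it was lost with the replicate number as a block, as were the other seven. At 3 h it was at 21.8 ± 0.408 and 21.5 ± 1.06 CPM. *Atp5j*, a further subunit of that stalk, went with it, at 17.6, 16.4 and 19.0 CPM against 16.2, 12.98 and 14.9 (-0.28 ± 0.087, adjusted p = 0.0307), without overlap.

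In complex I, *Ndufc1*, a small accessory subunit, was lower (5.49, 5.07 and 7.16 CPM against 4.62, 3.62 and 4.14, -0.56 ± 0.150, adjusted p = 0.0112), and so was *Ndufs8* (11.8, 9.80 and 11.9 CPM against 9.57, 8.24 and 7.94, -0.39 ± 0.102, adjusted p = 0.00811). The accessory subunits *Ndufa7* (-0.24 ± 0.082, adjusted p = 0.0494) and *Ndufa8* (-0.23 ± 0.075, adjusted p = 0.0346) were lower by less. The groups did not overlap for any of these 4. In complex III, *Uqcr11* was lower at the levels given above, 4.30 to 4.62 CPM against 5.58 to 6.11 (-0.37 ± 0.121, adjusted p = 0.0361).

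*Cox7a1*, the muscle isoform of complex IV subunit 7A, was the only member past the fold threshold at 24 h, beside 1.38% of all genes. It rested on a handful of counts, 11, 10 and 10 in 3 h controls, 8, 16 and 19 in AclyM-KO at 3 h, 6, 6 and 19 in 24 h controls and 0, 3 and 1 in AclyM-KO at 24 h. The fitted log2 fold change at 24 h was -2.29 ± 0.686 (adjusted p = 0.0219), and the call was lost without control replicate 4, AclyM-KO replicate 1 or AclyM-KO replicate 3.

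**Figure D5:**
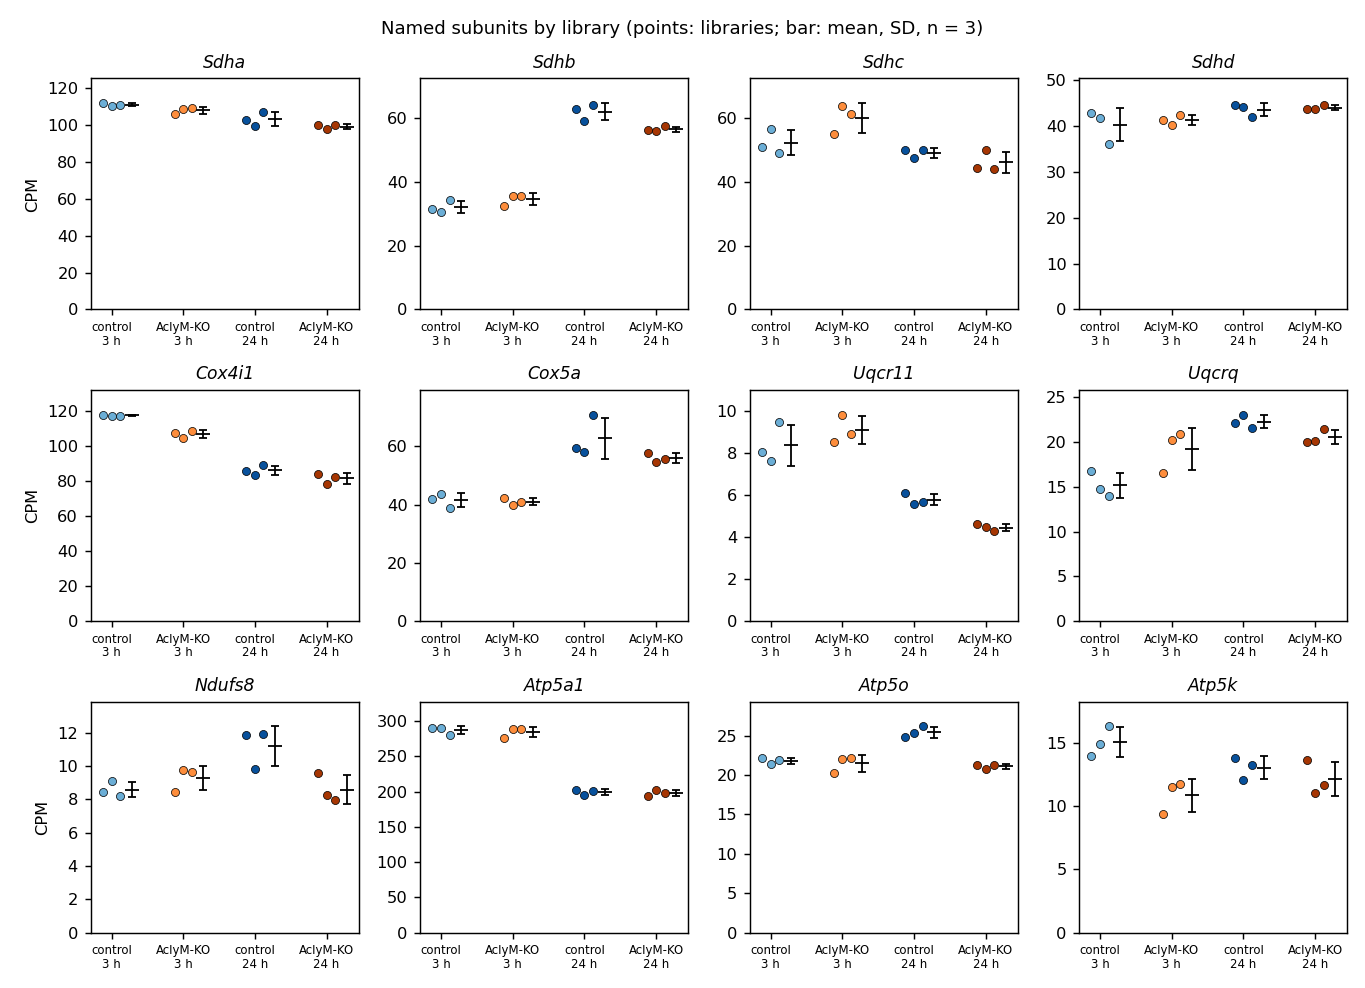
TMM-scaled CPM (vertical axes, from 0) of 12 members in each library of the 4 groups (horizontal axis); points are libraries and bars are the mean and SD of 3 libraries. *Sdhb* and *Cox5a* are higher at 24 h in both genotypes, *Cox4i1* and *Atp5a1* lower, *Atp5k* is lower in AclyM-KO at 3 h and *Atp5o* at 24 h.

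Whether the effect of *Acly* deletion differed between the times was tested by the interaction of genotype and time. 4 members passed, all with a lower AclyM-KO minus control difference at 24 h than at 3 h. None passed in the other direction, beside 4.66% and 4.86% of all genes tested. At an unadjusted p under 0.05, 2 members were above zero and 20 below it, beside 1486 and 1323 of all 11904 genes. None was above zero by DESeq2 at an adjusted p. For *Uqcrq* the difference was -0.460 ± 0.122 (adjusted p = 0.0141), from higher in AclyM-KO at 3 h to 20.04, 20.1 and 21.4 CPM against 22.2, 23.1 and 21.6 at 24 h, where the difference did not pass the threshold (-0.11 ± 0.081). *Ndufs8* (-0.506 ± 0.152), *Sdhc* (-0.292 ± 0.095) and *Cox7a1* (-2.72 ± 0.805) had adjusted p of 0.0315, 0.0476 and 0.0285. The number of members called was 16 without AclyM-KO 3 h replicate 1, which had the lowest level of its group for 59 of 87 members, and 0 without AclyM-KO 3 h replicate 3, 1 without AclyM-KO 24 h replicate 3, and 2 without control 24 h replicate 2 or control 3 h replicate 1.

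Lists of other mitochondrial genes were counted in the same fit. Of 38 assembly factors of the chain outside the Ndufaf names, 25 rose and 1 fell over time in controls and 24 rose and 3 fell in AclyM-KO, with median log2 fold changes of 0.505 and 0.46, against 0.002 and -0.067 for the 79 subunits. These were 65.8% rising and 2.63% falling in controls, beside 38.9% and 36.0% of all genes, and 63.2% and 7.90% in AclyM-KO, beside 39.4% and 36.3%. Of the 77 mitochondrial ribosomal proteins tested, 48 rose and 5 fell in controls and 45 rose and 10 fell in AclyM-KO, with medians of 0.47 and 0.39 (62.3% and 6.49%, then 58.4% and 12.99%). For import, 8 of 23 rose and 6 fell in controls and 6 rose and 4 fell in AclyM-KO, shares of 34.8% and 26.1%, then 26.1% and 17.4%, that did not exceed those of all genes. Of cytochrome c and the genes of ubiquinone synthesis, 7 of 14 rose and 1 fell (50% and 7.14%), and 8 rose and 2 fell (57.1% and 14.3%). Of 12 transcriptional regulators of mitochondrial genes, such as *Nrf1* and *Gabpa*, 5 rose and 5 fell in controls (41.7% each), and 6 rose and 4 fell in AclyM-KO (50% and 33.3%), near the shares of all genes in controls.

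For *Acly* deletion, 8.5% of all genes were higher and 6.91% lower at 3 h, and 8.32% and 5.57% at 24 h. At 3 h, *Mrpl4* of the mitochondrial ribosome was higher in AclyM-KO (0.43), with any 1 library left out, and *Mrpl54* too (0.36), while *Mrpl47* (-0.70), *Mrpl50* (-0.45) and *Pet100*, an assembly factor of complex IV (-0.46), were lower. At 24 h *Sco1*, which delivers copper to complex IV, was higher (0.24), and *Mrpl57* (-0.52), *Uqcc2*, an assembly factor of complex III (-0.51), and *Mrpl47* (-0.49) were lower. In all, 0 of 38 assembly factors were higher and 2 lower at 3 h (5.26%), and 1 and 1 at 24 h (2.63% each). The corresponding counts were 2 and 4 (2.60% and 5.20%), then 0 and 5 (6.49%), of 77 for the mitochondrial ribosome, 0 and 2 (16.7%), then 0 and 0, of 12 for the regulators, and 0 and 1 of 23 (4.35%) at each time for import. None of the 14 genes of cytochrome c and ubiquinone synthesis passed at either time.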

How the data were processed

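RNA was sequenced from 13 macrophage libraries. The authors prepared strand-specific mRNA libraries with the KAPA mRNA HyperPrep kit, aligned reads to mm10 with STAR 2.5.2b and summed them per RefSeq transcript with HOMER. The strand and multi-mapping settings are not given in the sources used here, so reads of overlapping genes and near-identical copies may be shared, and 30 tested members have an exon that overlaps another gene. The deposited table holds raw counts of the authors for 35745 transcripts, of which 35628 were matched to a symbol, 35435 through RefSeq's gene table for GRCm38.p6. For a symbol with several transcripts, the one with most counts was used.

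Groups and replicate numbers came from the labels. In R 4.3.3, edgeR 4.0.16 (TMM, filterByExpr, robust quasi-likelihood test) was fitted to 12 libraries and 19621 transcripts with 4 groups, and the Benjamini-Hochberg adjustment ran over all transcripts tested. A member was called at an adjusted p under 0.05, and a second count added a log2 fold change beyond 0.75, except for the interaction. CPM are TMM-scaled, errors of fold changes are SE. One count was worth 0.0153 to 0.0512 CPM. All replicate pairs differed by more than counting noise (chi-square per degree of freedom 2.45 to 11.7). The scripts were tested on simulated counts. Alternatives used DESeq2 1.42.0, limma 3.58.1 (voom), other scalings and filters, all 13 libraries, 1 time alone, 1 transcript per symbol, a replicate block and each library left out.

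Members and lists were chosen with earlier results of these data known. Named were *Acly*, members past both thresholds for genotype or called for the interaction, the 3 largest called changes in each direction of each contrast, reference subunits, isoforms, *Atpif1*, and the 3 largest genotype changes of the other lists. All members called for genotype, and further members of complexes III and V, complex I and the assembly factors, *Itgad*, *Impdh2* and *Rbm10*, were named after their values were seen.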

Additional observations from a re-analysis of the deposited data

Results flagged for a closer look

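The effect of *Acly* deletion differed between 3 h and 24 h of LPS, by the interaction of genotype and time, for 4 of 87 members. All 4 had a lower AclyM-KO minus control difference at 24 h. Of all 11904 genes tested, 4.66% passed in that direction and 4.86% in the other. The share of members that passed did not exceed that of all genes. On the log2 scale the 24 h effect minus the 3 h effect was -0.460 for *Uqcrq*, -2.72 for *Cox7a1*, -0.506 for *Ndufs8* and -0.292 for *Sdhc*. Of the 12 fits that each left out 1 library, the call was lost in 1 for *Uqcrq* (without AclyM-KO 3 h replicate 3), 6 for *Cox7a1*, 7 for *Ndufs8* and 9 for *Sdhc*. With 3 libraries per group, single outlying libraries were not tested.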

How the results depend on the processing

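For *Acly* deletion at 24 h, 8 members were called, against 5 with DESeq2, 13 with total counts, 15 without a filter on low counts, 15 with the 24 h libraries alone and 1 to 14 with 1 library left out (3 without AclyM-KO 24 h replicate 2, 2 without replicate 3, 4 without control 24 h replicate 2, 1 without replicate 4, 14 without AclyM-KO 3 h replicate 1 or 2). The member past the fold threshold, *Cox7a1*, had no adjusted p with DESeq2, with at least 10 counts in every library or with the 24 h libraries alone. No call could be made for it there, so the count past the fold threshold was 0 in each. That count was 0 to 1 with 1 library left out, while a fold threshold of 0.5 gave 2. The median of the members for *Acly* deletion at 24 h was -0.158 to -0.058 with 1 library left out. At 3 h, 1 to 9 members were called with 1 library left out and 0 to 1 past the fold threshold (1 without AclyM-KO 3 h replicate 1), with medians of -0.038 to 0.038. For the interaction, 4 became 7 without a filter, 9 with total counts and 0 to 16 with 1 library left out, with medians of -0.18 to -0.027.

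Over time, the 4 members past the fold threshold in controls became 13 with total counts, 14 at a threshold of 0.5 and 2 at a threshold of 1, and the 5 in AclyM-KO became 10, 13 and 3, and 3 with at least 10 counts in every library. That last filter removed *Cox6a2* and *Cox7a1*, which were then not tested. With total counts the medians were 0.302 in controls and 0.209 in AclyM-KO, and the sign turned for *Uqcrc1* (0.119) and *Uqcrfs1* (0.065) in controls and for *Atp5b* (0.116) and *Sdha* (0.120) in AclyM-KO. The counts of 45 and 43 stayed within 41 to 52 and 37 to 48 with 1 library left out, and the counts past the fold threshold within 4 to 5 and 5 to 6.

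Deviations of libraries that share a replicate number had correlations of -0.0305 to 0.0583, and those with different numbers -0.0645 to 0.0742, so the numbers were not taken as pairs. The highest value, 0.0742, was between control 24 h replicate 4 and control 3 h replicate 1, each the first of its group by column number. As the labels do not say which libraries belong together, the check by replicate number cannot decide whether they were paired. Between the 2 AclyM-KO groups each library correlated best with its own number (0.0578, 0.0382 and 0.0404), which is a hint only. Replicate 2 of these groups correlated more with control libraries. At 24 h this was control 24 h replicate 2 (0.0583), and at 3 h control 24 h replicate 4 (0.0576). With the replicate block 0 members were called for *Acly* deletion at 24 h, 0 past the fold threshold there, and 2 for the interaction (1 in each direction), and the medians were -0.044 over time in controls and -0.040 for the interaction. Only control 24 h replicate 4 carries that number, so the block takes this library out of the comparisons. The median for *Acly* deletion at 24 h was -0.053 with the block and -0.058 with that library left out. The causes of the differences between the fits were not tested. Members under about 1 CPM rest on few counts, and depth limits what can be said of them.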
